A study of Homo sapiens with 8 samples.

Results

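Open chromatin was followed at 5 protein-coding genes of NCI-H295R cells: TMTC1, PDZRN4, MCTP2, ZNF385D and EIF3H. They were chosen from the same peak lists described here, because vehicle peaks of large area, or many vehicle peaks, had no counterpart after CBP inhibition. The 5 are taken from 19974 protein-coding genes of the RefSeq table on chromosomes 1 to 22 and X. A peak belonged to a gene when its summit lay inside the gene, or lay in no protein-coding gene and within 100 kb of this one as the nearest. By that rule the genes held 37 of the 47161 peaks of the CBP inhibitor list, 49 of 41086 in the EZH2 inhibitor list, 71 of 51095 in the forskolin list and 81 of 61016 in the vehicle list.

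NCI-H295R is an established human adrenocortical carcinoma line. ATAC-seq marks open chromatin through the sites where the transposase Tn5 inserts adapters. Cells received the CBP inhibitor PRI-724 (CBPi, 26 µM, 96 h), the EZH2 inhibitor EPZ-6438 (EZH2i, 62 µM, 96 h), 10 µM forskolin for 48 h after 48 h of vehicle (FSK), or DMSO vehicle for 96 h. Each group had 2 libraries, labelled as biological replicates, and 1 peak list for the group was used here. Replicate error therefore cannot be given, no test between groups was possible, and read depth is unknown. The line carried peaks at adrenocortical genes in every list: NR5A1, which encodes the steroidogenic regulator SF1, had 3 in CBPi, 3 in EZH2i, 5 in FSK and 3 in vehicle cells.

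CBP is a histone acetyltransferase and transcriptional coactivator recruited to enhancers and promoters, and PRI-724 is known as a blocker of its binding to β-catenin. EZH2 is the methyltransferase of Polycomb repressive complex 2, and forskolin activates adenylyl cyclase and raises cAMP. The 5 genes share no pathway. TMTC1 encodes an endoplasmic reticulum O-mannosyltransferase of cadherins, PDZRN4 a PDZ and RING finger protein of the LNX ubiquitin ligase family, and MCTP2 a membrane protein with calcium-binding C2 domains. ZNF385D encodes a zinc finger protein, and EIF3H a subunit of translation initiation factor eIF3. No transcripts, proteins or histone marks were measured.

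A vehicle peak is called kept when a peak of the treated list covered at least 1 bp of it, and lost otherwise. A treated peak over no vehicle peak is called gained. A peak can leave a list by falling just under the caller's threshold, and all 3 comparisons use the same vehicle list. Of all vehicle peaks, 30.6% were lost under CBPi, 37.7% under EZH2i and 30.2% under FSK. Of the 81 vehicle peaks of the 5 genes, 46 were lost under CBPi (56.8%, 95% Wilson interval 45.9 to 67.0), 35 under EZH2i (43.2%, 33.0 to 54.1) and 22 under FSK (27.2%, 18.7 to 37.7). Each interval covers counting error only, as if peaks were independent of each other. The CBPi count restates how the genes were chosen. The order of the inhibitors did not hold at an area of at least 400 in every list. There CBPi lost 30 of 56 (53.6%), EZH2i 37 (66.1%) and FSK 21 (37.5%), and of all vehicle peaks 28.0%, 37.6% and 30.6%. Treated peaks under that area do not count at this setting, so a locus called lost can still hold one. At each other setting tried CBPi lost more member peaks than EZH2i. These settings reuse the lists from which the genes were chosen, so that order partly restates the choice. Vehicle peaks of the same areas, taken over the whole list in 20 area bins, would give 24.0 lost under CBPi, 30.0 under EZH2i and 23.7 under FSK. Of the 15735 genes with a vehicle peak, 27 lost at least as many as PDZRN4 with CBPi and 39 as many as ZNF385D. For MCTP2 the number was 198, for TMTC1 570 and for EIF3H 1507, each count including the gene itself. These CBPi ranks restate the choice too, and they depend on how many peaks a gene holds. At least as many vehicle peaks were held by 95 genes for PDZRN4, 84 for ZNF385D, 324 for MCTP2, 851 for TMTC1 and 1060 for EIF3H. With EZH2i, 27 genes also lost at least as many as PDZRN4. The farthest peak assigned to any of the 5 lay 98637 bp from MCTP2, and the nearest one beyond the limit lay 101011 bp from it.

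Mapped across the lists, 32 of the 81 vehicle loci held a peak in all 4 lists and 18 held one in the vehicle list alone. Another 14 were shared by the FSK and vehicle lists without either inhibitor list, and 10 were missing from the CBPi list alone. Of those 10, ZNF385D held 7, and TMTC1, PDZRN4 and EIF3H 1 each. Further, 4 loci were shared by the EZH2i and vehicle lists alone, and 3 were missing from the EZH2i list alone. None of the 81 was missing from the FSK list alone. The genes were chosen for peaks absent from the CBPi list, so patterns without a CBPi peak partly restate that choice. How all vehicle peaks divide among the same patterns was not counted, so none of these counts has a whole-list share beside it. The map of peaks by list shows these patterns gene by gene.

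**Figure D1:**
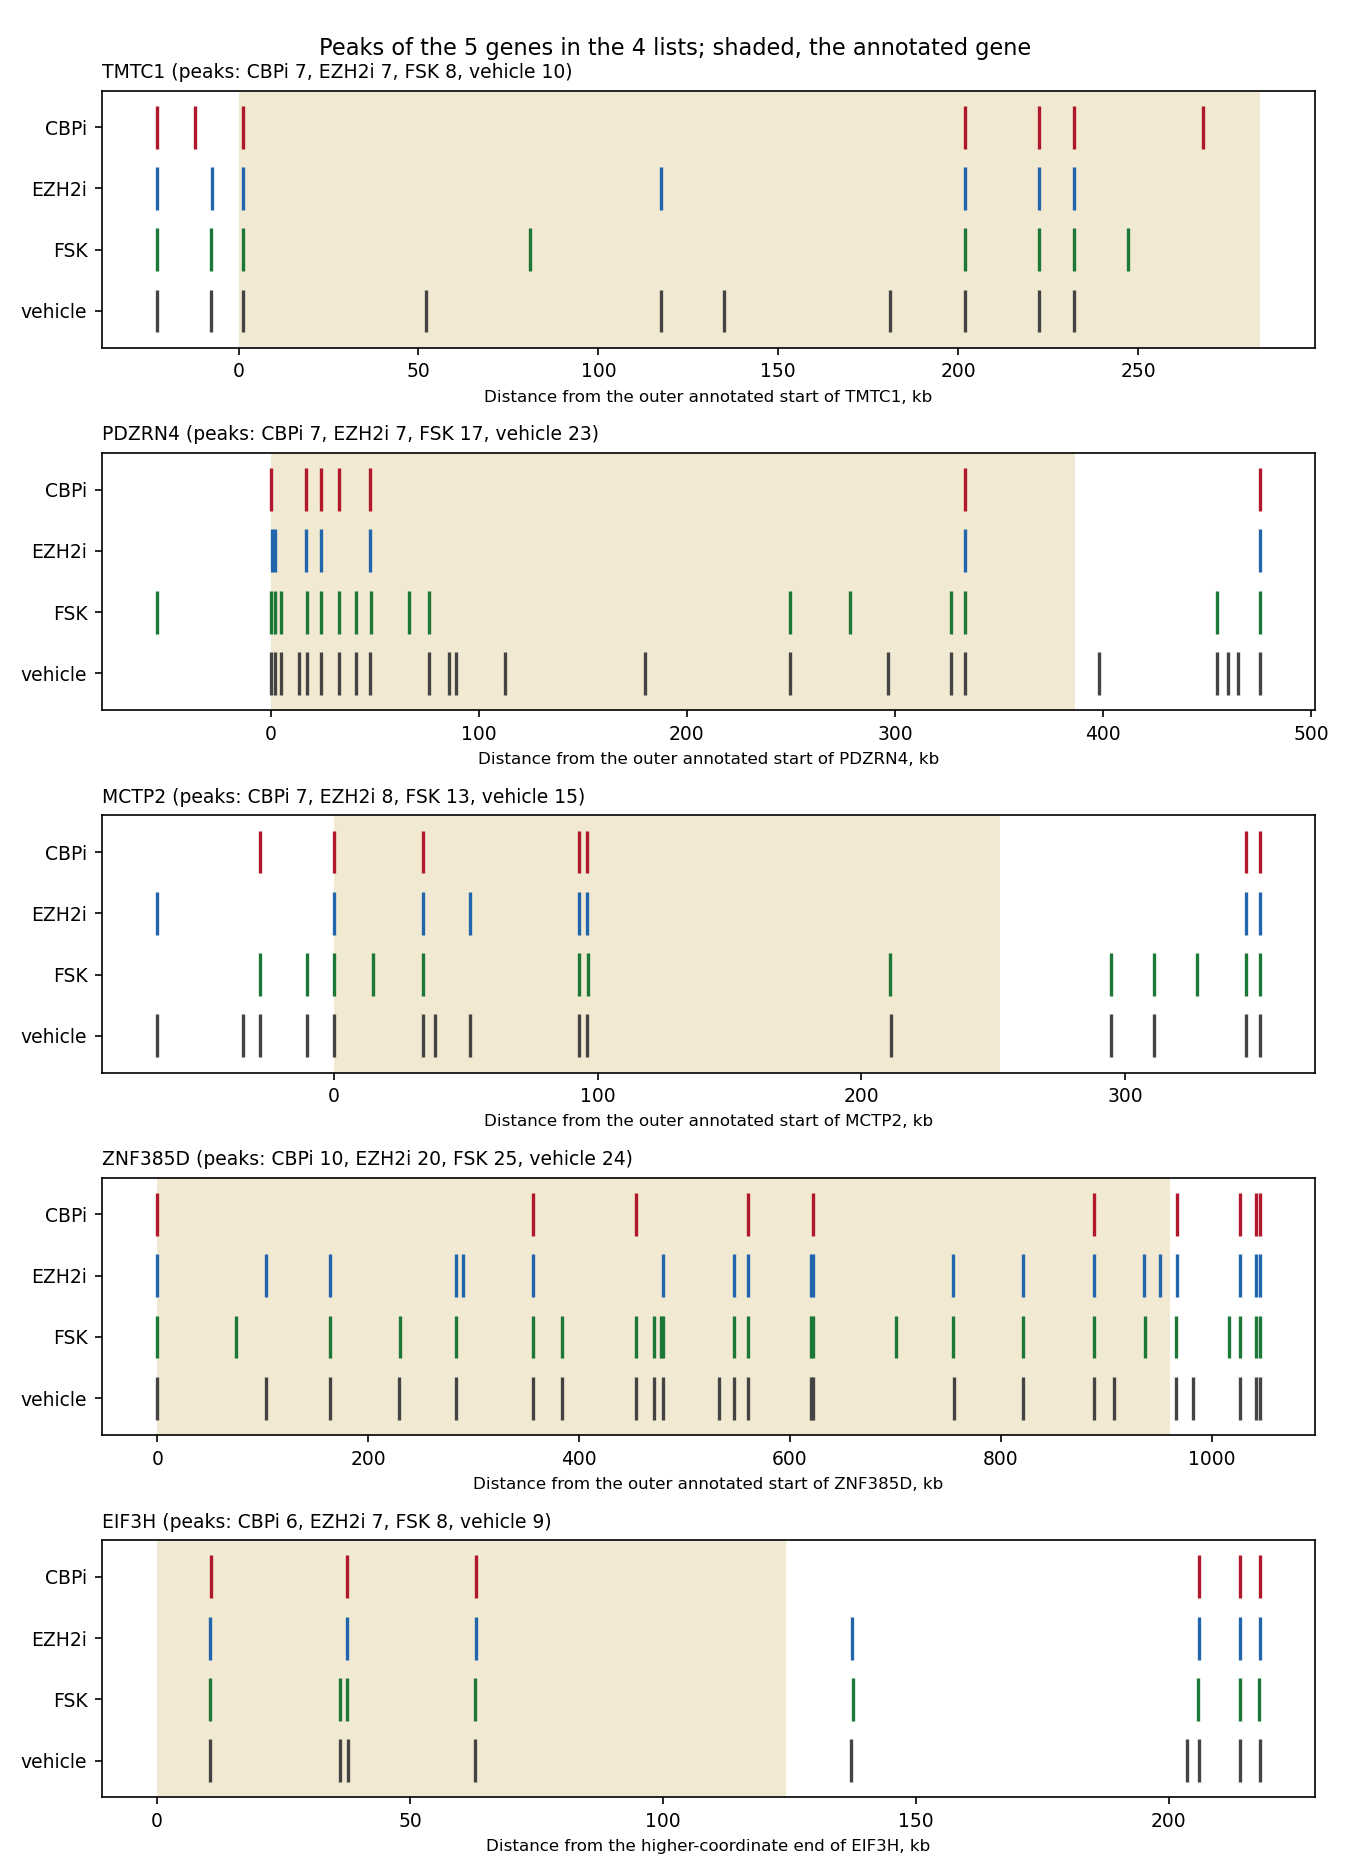
Peaks of the 5 genes in the CBPi, EZH2i, FSK and vehicle lists (rows), against distance in kb from the outer annotated start of each gene, or from the higher-coordinate end of EIF3H. Each tick is 1 peak and the shaded band is the annotated gene. The CBPi row is the emptiest for ZNF385D, with 10 peaks against 24 in vehicle, and PDZRN4 has 7 peaks in each inhibitor list against 23 in vehicle.

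TMTC1 lies on the minus strand of chromosome 12 at 29500813 to 29784759 (hg38; RefSeq GRCh38.p14). The vehicle peak that stood out was intergenic, at 29790303 to 29794632, with its summit 7782 bp upstream of the outer start. It was 4330 bp wide with an area of 9042, the caller's area of significance under the peak, and 0.244% of vehicle peaks were larger. With CBPi no peak was listed there, and the nearest CBPi peak, at 29796906 to 29797133, began 2274 bp away. The EZH2i list held a narrower peak of 2883 bp over 66.6% of the locus, and the FSK list one of 4019 bp over 92.8% of it. Within their own lists, 12.9% of EZH2i peaks and 0.346% of FSK peaks had a larger area than these. Of the 150 vehicle peaks at least this large, this was the 1 lost with CBPi, while the EZH2i and FSK lists missed 0. Large peaks lost with CBPi were the ground for choosing the genes, so this contrast restates the choice.

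The neighbouring peak at the start of TMTC1 was kept in every list. In vehicle cells it covered 29782281 to 29784666 with an area of 5805, exceeded by 1.81% of vehicle peaks, and its counterparts were 2378 bp wide with CBPi, 2348 bp with EZH2i and 2619 bp with FSK, against 2386 bp in vehicle. It spanned the inner of 2 annotated starts, at 29783942. The outer start, at 29784759, lay outside the peak by 103 bp with CBPi, 126 bp with EZH2i and 93 bp with vehicle, and inside it with FSK. The CBPi list thus lacked the upstream peak and held the one over the inner start.

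**Figure D2:**
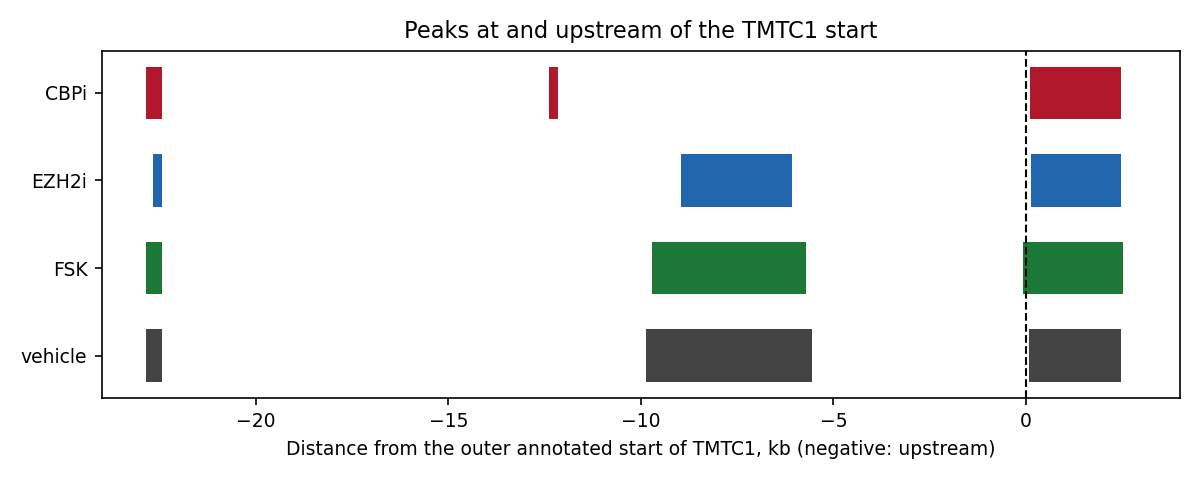
Extent of the peaks near the start of TMTC1 in the 4 lists (rows); the horizontal axis is distance in kb from the outer annotated start (dashed line), upstream to the left. The peak at about 8 kb upstream, 4330 bp wide in vehicle, is absent from the CBPi row, where a 228 bp peak lies farther upstream.

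The 250 bases before the outer start of TMTC1 are shown because this start is the border of the peak, and capitals mark matches to the searched motifs. The bases are from RefSeq, GRCh38.p14, chr12:29784760-29785009, minus strand, 5′ to 3′.
TMTC1 outer start: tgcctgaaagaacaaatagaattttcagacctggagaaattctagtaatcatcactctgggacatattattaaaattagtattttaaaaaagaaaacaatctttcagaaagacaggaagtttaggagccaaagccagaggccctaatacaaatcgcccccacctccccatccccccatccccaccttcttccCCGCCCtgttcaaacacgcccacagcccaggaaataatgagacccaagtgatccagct
The single match is to the SP1 motif GGGCGG, on the opposite strand. The GC content of this window was 42.7% over its 300 bases, against a median of 62.3% over 22156 such windows of protein-coding genes, while that of the inner, covered start was 75.7%.

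Inside TMTC1 the losses were of smaller peaks. Besides the upstream peak, 4 of 10 vehicle peaks were lost with CBPi, all within the gene; their areas reached 624 at the largest (29666996 to 29667567) and 354 at the next (29732309 to 29733001). The first of these had a counterpart with EZH2i and none with FSK, and the other 3 were lost with all 3 treatments. In total TMTC1 lost 5 of 10 with CBPi (3.73 expected from area), 3 with EZH2i (4.57 expected) and 4 with FSK (3.65 expected). Kept peaks inside the gene included those with areas of 665 and 473, found in every list. CBPi gained 10.7% of its peaks over the whole list and 2 here, EZH2i 6.98% and 0 here, and FSK 15.9% and 2 here. The larger CBPi gain, of area 428, lay inside the gene at 29516372 to 29516898, and the other was the peak upstream of the lost one. The FSK gains, inside the gene at 29703602 to 29703898 and 29537417 to 29537674, had areas of 334 and 248.

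PDZRN4 occupies 41188320 to 41574745 on the plus strand of chromosome 12. It had 7 peaks with CBPi, 7 with EZH2i and 17 with FSK, against 23 in vehicle. It lost 16 of the 23 with CBPi (69.6%, 49.1 to 84.4), 16 with EZH2i (69.6%) and 9 with FSK (39.1%). The counts expected from area were 9.51, 11.5 and 9.36. The description of strong peaks being lost did not hold at this gene with CBPi. Its 16 lost peaks had areas of 209 to 539, all under the vehicle-list median of 581, and its 7 kept peaks had areas of 1053 to 2132.

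The peaks kept with CBPi at PDZRN4 sat mainly near its start. The peak at the annotated start (41188262 to 41189138, area 1712 in vehicle) was kept in every list. The start itself, at 41188320, was covered in vehicle, and the treated peaks began 38 bp past it with CBPi, 33 bp with EZH2i and 126 bp with FSK. In the first 50 kb from the start, 4 of 9 vehicle peaks were lost under CBPi, 4 under EZH2i and 1 under FSK. Farther along the gene and beyond it, 12 of 14 were lost under CBPi, 12 under EZH2i and 8 under FSK. The first stretch held 5 of the 7 peaks of area over 1000, so position and area cannot be told apart.

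One large PDZRN4 peak, at 41220589 to 41222239 with a vehicle area of 1739, had no counterpart with EZH2i. With CBPi it was kept by a peak of 361 bp over 21.9% of its 1651 bp, and with FSK by one over 80.3% of it. The largest peak of the gene, at 41205173 to 41206160 (area 2132), was kept in every list, and was 493 bp wide with CBPi, 652 bp with EZH2i, 832 bp with FSK and 988 bp in vehicle. The 3 largest peaks lost with CBPi had areas of 539 (41642878 to 41643527), 456 (41193006 to 41193817) and 446 (41367959 to 41368424). The first and second of them were also lost with EZH2i and kept with FSK, and the last was lost with all 3. FSK gained 3 peaks at PDZRN4, of which the largest lay inside the gene at 41254594 to 41254943 (area 537) and the next upstream at 41133695 to 41133971 (area 276). CBPi and EZH2i gained 0. At an area of at least 400 in every list, PDZRN4 lost 6 of 12 with CBPi, 9 with EZH2i and 5 with FSK.

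An internal start of PDZRN4, 41437739, lay under a small vehicle peak (41437601 to 41437835, area 209). The FSK list held a peak of 285 bp there and both inhibitor lists held none, the nearest being 84024 bp from the start with CBPi and 84186 bp with EZH2i. Since 97.7% of vehicle peaks were larger, this peak lay close to the caller's limit. Its 250 upstream bases are shown as the start whose peak differed between lists (RefSeq, GRCh38.p14, chr12:41437489-41437738, plus strand, 5′ to 3′).
PDZRN4 internal start: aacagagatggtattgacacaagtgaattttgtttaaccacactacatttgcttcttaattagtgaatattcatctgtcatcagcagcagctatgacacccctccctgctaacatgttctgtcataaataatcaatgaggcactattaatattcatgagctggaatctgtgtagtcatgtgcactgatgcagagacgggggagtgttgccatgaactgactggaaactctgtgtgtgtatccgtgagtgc
No searched motif matched in these bases. The GC content of the window was 42.7%, and 90.1% of windows had more.

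MCTP2 lies on the plus strand of chromosome 15 at 94231366 to 94483952, with 0 other protein-coding genes within 1 Mb of its ends. It had 7 peaks with CBPi, 8 with EZH2i and 13 with FSK, against 15 in vehicle. With CBPi 8 of 15 were lost (3.34 expected from area), with EZH2i 7 (4.43 expected) and with FSK 4 (3.34 expected). The peak over its start, at 94230500 to 94232570, had an area of 7159 in vehicle, exceeded by 0.800% of vehicle peaks. It was kept in every list, with widths of 1950 bp with CBPi, 1905 bp with EZH2i and 1964 bp with FSK, against 2071 bp in vehicle. All 300 bases of the window around the start at 94231561 were covered in the 4 lists. A second annotated start, at 94355930, had no peak in any list, the nearest lying 28241 bp away in vehicle.

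The bases before the second start are shown as those of a start with no peak near it in any list, with the match to the TCF/LEF motif CTTTGAA, on the opposite strand, in capitals (RefSeq, GRCh38.p14, chr15:94355680-94355929, plus strand, 5′ to 3′).
MCTP2 second start: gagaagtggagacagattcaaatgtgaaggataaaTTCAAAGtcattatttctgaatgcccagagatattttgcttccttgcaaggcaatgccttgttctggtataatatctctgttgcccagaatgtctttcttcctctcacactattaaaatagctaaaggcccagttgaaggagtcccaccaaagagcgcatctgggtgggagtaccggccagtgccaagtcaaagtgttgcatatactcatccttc
The GC content of this window was 42.0%, against 70.0% for the window of the covered start, which held 2 SP1 matches, a motif present in 56.3% of all windows.

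The losses at MCTP2 lay away from the start. The largest was at 94441877 to 94443063 inside the gene, with an area of 1060; it was lost with CBPi and EZH2i and kept with FSK, and the nearest CBPi peak was 114194 bp away. Among the 18358 vehicle peaks at least as large, 119 were lost under CBPi, 188 under EZH2i and 195 under FSK. The next, inside the gene at 94282535 to 94283278 (area 779), was lost with CBPi and FSK and kept with EZH2i. The third, upstream at 94164279 to 94164732 (area 594), showed the same pattern. Outside the gene, 5 of 8 vehicle peaks were lost under CBPi, 5 under EZH2i and 2 under FSK. A peak 27.9 kb upstream of the start (94203209 to 94203750, area 1073) was lost with EZH2i, and kept with CBPi and FSK. An internal peak at 94264856 to 94265483 (area 1178) was kept in every list. MCTP2 gained 2 peaks with FSK, at 94558344 to 94559056 (area 610) and 94245961 to 94246346 (area 404), and 0 with CBPi or EZH2i.

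ZNF385D, on the minus strand of chromosome 3 at 21412218 to 22372763, held most of the loci missing from the CBPi list alone. The list counts were 10 with CBPi, 20 with EZH2i and 25 with FSK, against 24 in vehicle. Of the 24 vehicle peaks, 14 were lost under CBPi (58.3%, 38.8 to 75.5), 7 under EZH2i (29.2%, 14.9 to 49.2) and 4 under FSK (16.7%, 6.68 to 35.9). The counts expected from area were 6.12, 7.85 and 6.08. Its 10 peaks at or under the vehicle median area were all absent from the CBPi list. The EZH2i list lacked 4 of them and the FSK list 4. Of all vehicle peaks in that area range, CBPi lost 55.8%, EZH2i 67.7% and FSK 54.6%. The CBPi count partly restates how the gene was chosen. In that range PDZRN4 (16 of 16) and EIF3H (2 of 2) also lost every peak under CBPi, while TMTC1 (3 of 6) and MCTP2 (5 of 7) did not. Most losses with CBPi lay inside the gene: 13 of 19 internal peaks were lost under CBPi, 6 under EZH2i and 3 under FSK, and outside it each treatment lost 1 of 5. The order of CBPi and EZH2i did not hold at an area of at least 400 in every list, where 9 of 17 were lost with CBPi and 12 with EZH2i. When 50% of a peak had to be covered, 11 of 24 were lost with EZH2i.

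The largest peak ZNF385D lost with CBPi was internal, at 21617023 to 21618027, 1005 bp wide with a vehicle area of 2022. EZH2i retained a peak over 33.7% of it and FSK over 62.7%. The nearest CBPi peak was 132381 bp away. Of the 9603 vehicle peaks at least as large, 3 were lost under CBPi, 1 under EZH2i and 2 under FSK. The place of this peak among the CBPi losses restates how the genes were chosen. The next losses, at 21901616 to 21902127 (area 881) and 21988681 to 21989281 (area 637), were also lost with EZH2i and kept with FSK. A peak at 21918547 to 21919632 (area 1083) was lost with EZH2i, and kept with CBPi and FSK.

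The kept peaks of ZNF385D included both of its start regions. The outermost start had a peak at 22372411 to 22372939 (area 667 in vehicle) in all 4 lists. The internal start at 21751210 lay under the largest peak of the gene, at 21750679 to 21751724 (area 2657), 812 bp wide with CBPi, 1022 bp with EZH2i and 831 bp with FSK, against 1046 bp in vehicle. A peak of 208 bp beside it, at 21752846 to 21753053 (area 403), was lost with CBPi alone, 1219 bp from the nearest CBPi peak. The bases before the internal start are shown as those of a covered start in a gene that lost 13 of its 19 internal peaks with CBPi. Those before the outermost start were not analysed. The SP1 match is in capitals (RefSeq, GRCh38.p14, chr3:21751211-21751460, minus strand, 5′ to 3′).
ZNF385D internal start: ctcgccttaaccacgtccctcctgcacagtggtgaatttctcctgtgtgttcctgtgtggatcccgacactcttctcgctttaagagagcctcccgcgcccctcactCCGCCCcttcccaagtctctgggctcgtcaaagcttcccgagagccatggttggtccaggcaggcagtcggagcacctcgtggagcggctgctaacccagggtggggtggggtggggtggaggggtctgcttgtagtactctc
The GC content of the window was 61.0%. Other kept peaks of large area were downstream of the gene at 21329733 to 21330821 (area 1743) and internal at 22015794 to 22016880 (area 1668). ZNF385D gained 0 peaks with CBPi, 3 with EZH2i and 5 with FSK; the FSK gains of largest area were at 21356427 to 21356746 (area 632) and 21672333 to 21672572 (area 268). Those with EZH2i were at 22082403 to 22082736 (area 252) and 21421207 to 21421410 (area 220).

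EIF3H spans 116642130 to 116766374 on chromosome 8. It had 6 peaks with CBPi, 7 with EZH2i and 8 with FSK, against 9 in vehicle. With CBPi it lost 3 of 9 (1.26 expected from area), with EZH2i 2 (1.64 expected) and with FSK 1 (1.28 expected). The largest lost peak was intergenic, 13249 bp beyond the lower-coordinate end, at 116628532 to 116629828 with a vehicle area of 1935. With CBPi the nearest peak was 67700 bp away. The EZH2i list held a peak of 734 bp over 56.6% of the locus and the FSK list one of 357 bp over 27.5%; in the FSK list 97.9% of peaks were larger. When 50% of a peak had to be covered, EIF3H lost 4 of 9 with FSK. The other losses with CBPi had areas of 498 (116730065 to 116730419), also lost with EZH2i, and 329 (116562445 to 116562997), lost with all 3 treatments.

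The remaining peaks of EIF3H were kept in every list, the largest at 116551823 to 116552790 (area 2068), 116755527 to 116756240 (area 1324) and 116703186 to 116703851 (area 1276). The peak at the higher-coordinate end of EIF3H counted by the rule toward UTP23, a ribosomal RNA processing gene that begins 149 bp beyond it, because the vehicle summit was 26 bp from UTP23 and 124 bp from EIF3H. That peak covered the EIF3H end in all 4 lists, with widths of 1507 bp with CBPi, 1471 bp with EZH2i and 1601 bp with FSK, against 1680 bp in vehicle. EIF3H gained 0 peaks with any treatment.

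Area separated lost from kept peaks at these genes as in the whole list, but not fully. Over the 5 genes the vehicle peaks lost with CBPi had a median area of 389 and the kept ones 1083, against 306 and 888 over all vehicle peaks. Above the vehicle median area, 10 of 40 were lost under CBPi (25.0%, against 5.45% of all such peaks), 6 under EZH2i (against 7.62%) and 3 under FSK (against 5.91%). At or under it, 36 of 41 were lost under CBPi (87.8%, against 55.8%), 29 under EZH2i (70.7%, against 67.7%) and 19 under FSK (46.3%, against 54.6%). The CBPi shares describe the choice of genes. Of the 46 peaks lost with CBPi, 0 had a CBPi peak within 500 bp, and the nearest lay at a median of 26898 bp, against 22362 bp over all lost peaks.

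**Figure D3:**
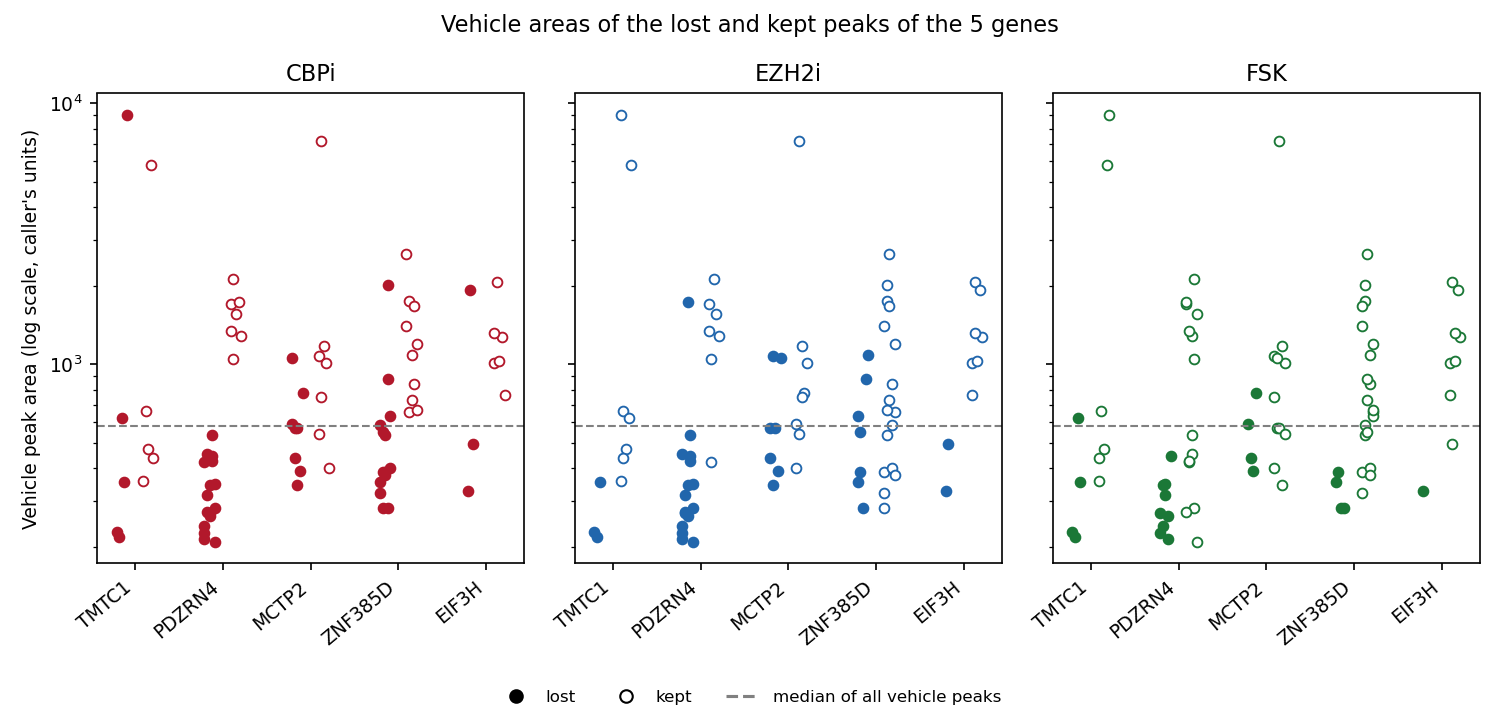
Vehicle area (log scale, the caller's units) of each vehicle peak of the 5 genes, filled when lost and open when kept, with CBPi, EZH2i and FSK in separate panels. The dashed line is the median of all vehicle peaks, 581; with CBPi the filled points of PDZRN4 all lie under it, and those of TMTC1, ZNF385D and EIF3H include single points at 9042, 2022 and 1935.

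Most kept peaks were narrower in the treated lists. With CBPi 31 of the 35 kept peaks had a narrower counterpart (88.6%, against 57.1% of all kept vehicle peaks), with EZH2i 39 of 46 (84.8%, against 73.7%) and with FSK 39 of 59 (66.1%, against 66.1%). Their median width was 439 bp with CBPi, against 628 bp at the same loci in vehicle, 387 bp with EZH2i, against 558 bp, and 494 bp with FSK, against 542 bp. Over all kept peaks it was 650 bp with CBPi, against 673 bp in vehicle, 621 bp with EZH2i, against 724 bp, and 593 bp with FSK, against 664 bp. Peak width depends on depth and on the caller's threshold, whose part in this was not tested. The genes were also chosen for peaks lost with CBPi, so their CBPi widths are not independent of that choice.

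The vehicle peaks around these genes were counted as well. Within 1 Mb of a gene and outside its own set there were 187 vehicle peaks. Of these, 88 were lost under CBPi (47.1%, against 30.6% of all vehicle peaks) and 87 under EZH2i (46.5%, against 37.7%). FSK lost 69 of them (36.9%, against 30.2%). No share expected from area was calculated for the 187 as a whole. ZNF385D lost 58.3% of its own peaks with CBPi, against 58.3% of the peaks around it (21 of 36), and 16.7% with FSK, against 36.1% around it (13 of 36). PDZRN4 lost 69.6% with CBPi, against 50.9% around it, and 69.6% with EZH2i, against 63.2% around it. With CBPi the share was 53.3% at MCTP2 and 50.0% around it, 50.0% at TMTC1 and 36.4% around it, and 33.3% at EIF3H and 37.8% around it. The intervals of gene and surroundings overlapped in each of these pairs with CBPi, and no difference between them was tested. Area gave expected CBPi shares of 31.3% around TMTC1, 40.7% around PDZRN4, 35.8% around MCTP2, 31.7% around ZNF385D and 28.9% around EIF3H. With EZH2i the shares around TMTC1 (36.4%, 38.6% expected) and MCTP2 (33.3%, 44.9% expected) lay below expectation. Those around PDZRN4 (49.3% expected), ZNF385D (47.2%, 38.8% expected) and EIF3H (37.8%, 35.3% expected) lay above it. With FSK the shares lay on both sides.

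**Figure D4:**
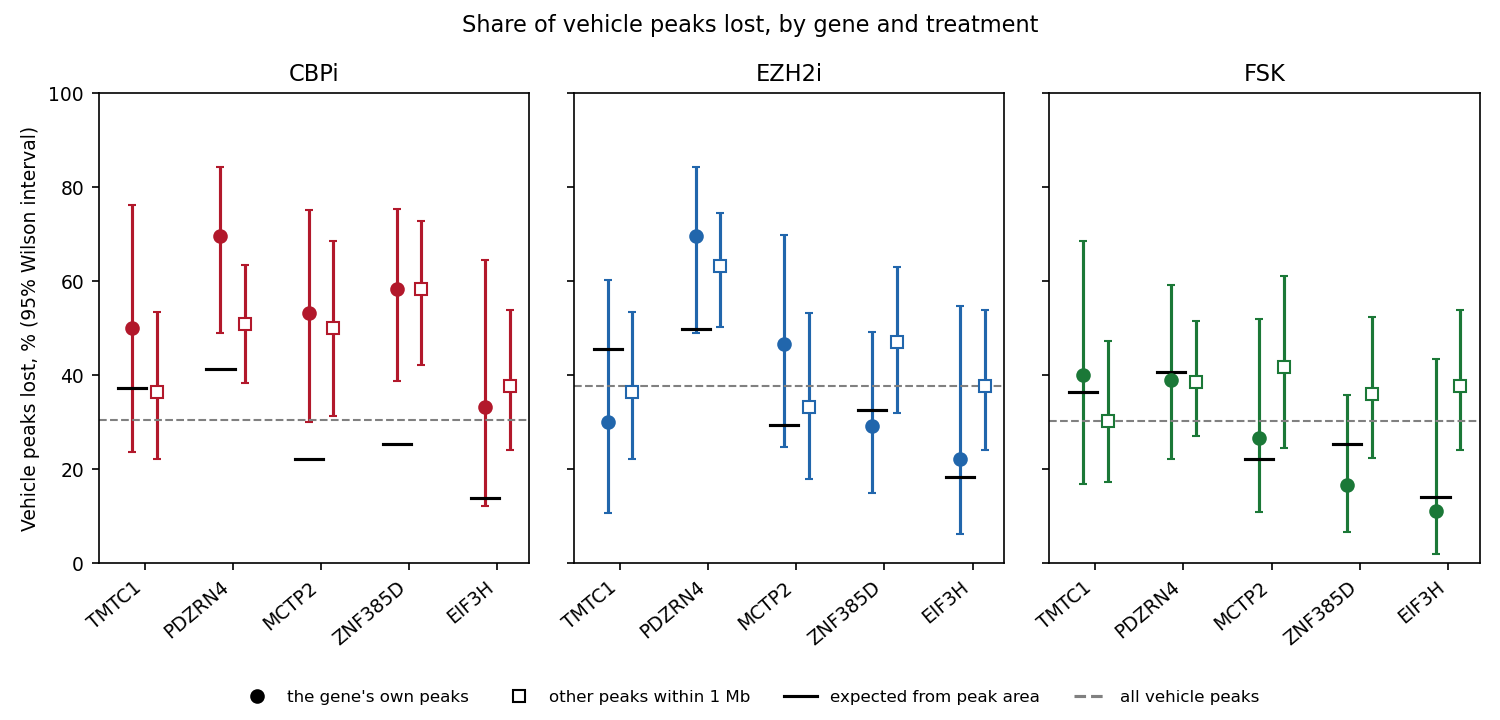
Share of vehicle peaks lost (percent, with 95% Wilson intervals) for the peaks of each gene (filled circles) and the other peaks within 1 Mb (open squares), by treatment. Black bars give the share expected from peak area, and dashed lines that of all vehicle peaks (CBPi 30.6%, EZH2i 37.7%, FSK 30.2%). All 5 filled circles for CBPi lie above their black bars, which partly restates how the genes were chosen. Filled circles for EZH2i, and those for FSK, lie on both sides of their bars.

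Relatives of the 5 genes were listed by family or complex: TMTC2 to TMTC4, PDZRN3, LNX1 and LNX2, MCTP1, ZNF385A to ZNF385C, and 12 other subunits of eIF3. These 22 genes had 76 peaks with CBPi, 71 with EZH2i and 97 with FSK, against 111 in vehicle. Of the 111, 44 were lost under CBPi (39.6%; 31.7 expected from area), 48 under EZH2i (43.2%; 39.3 expected) and 29 under FSK (26.1%; 31.4 expected). Those that lost at least 3 to any treatment were TMTC2, PDZRN3, LNX1, MCTP1, ZNF385B and EIF3E. MCTP1, the other C2-domain gene of its family, lost 8 of 12 with CBPi (3.47 expected), 6 with EZH2i (4.47 expected) and 4 with FSK (3.46 expected). ZNF385B lost 10 of 20 with CBPi (6.29 expected), 10 with EZH2i (7.92 expected) and 8 with FSK (6.20 expected). TMTC2 lost 6 of 9 with CBPi (3.87 expected), 6 with EZH2i (4.64 expected) and 3 with FSK (3.81 expected). LNX1 lost 3 of 6 with CBPi (2.62 expected), 4 with EZH2i (3.18 expected) and 2 with FSK (2.64 expected).

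PDZRN3, a paralog of PDZRN4, lost 8 of 27 with CBPi (6.30 expected), 12 with EZH2i (7.93 expected) and 7 with FSK (6.23 expected). Among eIF3 subunits, EIF3E lost 5 of 6 with CBPi (3.34 expected), 5 with EZH2i (3.94 expected) and 2 with FSK (3.31 expected). EIF3C held 0 vehicle peaks; this gene has a near-identical copy, so its count is uncertain. All eIF3 subunits other than EIF3H together had 18 vehicle peaks and lost 6 with CBPi (5.74 expected), 7 with EZH2i (6.89 expected) and 3 with FSK (5.74 expected).

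The 6 annotated start windows of TMTC1, PDZRN4, MCTP2 and ZNF385D were searched on both strands for 10 motifs. No window held a CRE (TGACGTCA, in 2.26% of all windows), an AP-1 motif (TGANTCA, 6.16%), an SF1 motif (CAAGGTCA, 1.00%), an ETS motif (CCGGAAG, 12.8%), the NRF1 motif (7.40%) or the TCF/LEF motif CTTTGAT (1.99%). The other TCF/LEF form, CTTTGAA (3.62%), which differs from it in the last letter, matched once in the uncovered second window of MCTP2. The motif of GATA factors, searched as AGATAA and present in 7.88% of windows, matched once in the outer TMTC1 window, within its 50 bases after the start, and NF-Y (CCAAT, 34.6%) once in the inner one. A match describes letters in a window, and nothing about binding follows from it or from its absence.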

How the data were processed

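Open chromatin was measured by ATAC-seq in 8 libraries of 4 groups. The authors deposited 1 narrowPeak list per group, with hg38 as the build in the submitters' processing notes. The same notes list Bowtie2, Genrich and deepTools 2.0, with no role given. The sources used here do not state how libraries were combined, whether reads were shifted for Tn5, or which filters and threshold made the peaks. The signal deposited by the authors is the peak area, used only to rank or bin peaks within a list; the deposited −log10 p at the summit was used for no call. No counts or depths were used.

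Genes came from RefSeq, GRCh38.p14, and starts and sequences from its promoter table (250 bases before to 50 after a start). Sequences of EIF3H, of the outer starts of PDZRN4 and ZNF385D and of the lost peaks were not analysed here. Overlaps and gene assignment (Python 3.11.15, pandas 2.3.3, SciPy 1.17.1) were checked on simulated lists. Expected counts used 20 area bins of the vehicle list. Members, gene lists, motifs and named peaks (per gene those within 1 kb of its ends, the 3 largest lost and kept with CBPi, the 2 largest gains) were chosen with earlier results of these data known; further peaks were named after their values were seen.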

Additional observations from a re-analysis of the deposited data

How the results depend on the processing

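The alternatives changed the overlap that counts as shared, the area minimum, the list length and the flank, and an alternative that assigns peaks by nearest gene end was chosen after seeing the data. The member counts lost were 46 (CBPi), 35 (EZH2i) and 22 (FSK). With all lists cut to the 41086 peaks of the shortest they were 25, 16 and 12 of 57, and the shares of all vehicle peaks lost were 18.0%, 17.7% and 20.7%. With an area of at least 400 in every list, treated peaks under that area were left out. The genes then lost 30 of 56 with CBPi, 37 with EZH2i (66.1%, above the CBPi share of 53.6%) and 21 with FSK. The all-peak shares were 28.0%, 37.6% and 30.6%. The all-peak shares were 33.7%, 41.6% and 34.1% when 50% of the peak had to be covered, 29.5%, 36.1% and 28.7% when a peak within 500 bp counted as shared, and 30.6% for FSK when the summit had to lie inside a peak. Partner counts in the same treatment order were 44, 48 and 29 of 111 in the main run, and 22, 19 and 17 of 78 with lists of equal length. With CBPi they were 28 of 67 (41.8%, against 39.6% in the main run) by summits inside genes only. With EZH2i they were 31 of 77 at the area minimum. Of the members' CBPi peaks, 1 of 27 was gained at the area minimum and 1 of 24 by gene body only. Of their EZH2i peaks, 1 of 20 was gained at the area minimum and 8 of 49 with equal lengths. The share gained over all peaks was not counted at these settings, so these gains cannot be set against it. Nearest gene ends gave 46, 35 and 22 member peaks lost. Counts for single genes moved by over 1.5 times in 32 of the recomputed values and by less in 88. No replicate could be left out, because each group is 1 list. No paired analysis was possible because the lists carry no replicate numbers. Depth, unknown here, limits every call near the area minimum.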
